A study of Mus musculus with 30 samples.

Results

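The subunits of the respiratory chain and the ATP synthase were examined as a set in 5 mouse fibrosarcoma lines, to compare the genes carried by the mitochondrial genome with those carried by the nucleus. Members were the protein-coding genes whose mouse symbol names a subunit of complex I (mt-Nd, Ndufa, Ndufb, Ndufc, Ndufs and Ndufv genes), complex II (Sdha to Sdhd), complex III (mt-Cytb and Uqcr genes), complex IV (mt-Co genes and Cox4 to Cox8) or complex V (mt-Atp and Atp5 genes). This gave 97 of the 48440 genes in the table, of which 13 are mitochondrial and 84 nuclear, and 10 processed pseudogenes with matching symbols were left out. By complex, 7 mitochondrial and 35 nuclear genes belong to complex I, 4 nuclear genes to complex II, 1 and 8 to complex III, 3 and 20 to complex IV, and 2 and 17 to complex V. Ndufa4 and Ndufa4l2 are counted with complex IV, where their proteins are found, and Atp5s, which the symbol rule takes in, is not a subunit of the enzyme.

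The respiratory chain passes electrons from NADH and succinate to oxygen and pumps protons across the inner mitochondrial membrane, and the ATP synthase uses the proton gradient to make ATP. Complexes I, III, IV and V are built from proteins of both genomes, whereas complex II is wholly nuclear-encoded. The mitochondrial genome is transcribed by its own polymerase from both strands into long precursors that are cut into single messengers, and mt-Nd6 is the one protein gene read from the strand opposite to the others.

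Bulk RNA-seq was made of 30 tumors grown in vivo in C57BL/6 mice, from 5 lines that each derive from 1 primary sarcoma induced with the carcinogen 3-methylcholanthrene (MCA). MCA-943 had 4 tumors, MCA-948 had 8, MCA-969 had 8, MCA-970 had 6 and MCA-972 had 4. The labels call MCA-948, MCA-970 and MCA-972 sensitive to natural killer (NK) cells and MCA-943 and MCA-969 not sensitive, except that W-1D and W-2D of MCA-969 carry the label of sensitive lines. The background given for every tumor is C57BL/6, and the strain given is Ncr1Cre for MCA-943 and Ncr1Cre R26DTA, in which a toxin gene is switched on in cells that express Ncr1, for the other 4 lines. The labels do not say whether this strain is that of the mouse in which the line arose or that of the host. In the paper, primary tumors were induced in Ncr1Cre mice with or without R26DTA, and the lines were transplanted into C57BL/6 mice. Strain cannot be told apart from line for MCA-943. Each line is a single primary tumor, and differences between lines are differences between these 5 tumors of origin and their transplants. The sample titles also carry a letter W or a whose meaning is not given in the sources used here. MCA-943 holds 1 tumor with W and 3 with a, MCA-948 and MCA-969 hold 4 of each, MCA-970 holds 3 of each, and MCA-972 holds 3 with a, 1 with no letter and none with W, so that letter and line are partly confounded. Leukocytes were depleted with beads before RNA extraction, and in bulk RNA fewer cells of a type and less RNA per cell cannot be told apart.

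Libraries held 27745104 to 46537062 counts, with a median of 35039383, and no pair of libraries was alike enough to be a duplicate. All 30 tumors correlated best with the mean of their own line. The mesenchymal markers were abundant in every tumor, with summed levels of 15364 to 80861 CPM (counts scaled to library size), whereas the 11 leukocyte markers summed to 13.4 to 299.7 CPM. The 3 epithelial markers summed to 66.2 to 139 CPM in MCA-948 and 139.6 to 566 in MCA-969, and to 12.3 or less in the other lines, and their part in the results below was not tested. The libraries fall into 3 blocks of consecutive library numbers: block 1 holds 6 tumors of MCA-969 and all of MCA-972, block 2 holds all of MCA-970 with 2 tumors each of MCA-948 and MCA-969, and block 3 holds all of MCA-943 and 6 tumors of MCA-948. Lines and blocks are therefore only partly separable, and values within blocks are given where they bear on a result. The tumor MCA-969 W-2D stands apart in the nuclear members and is described on its own, and results that rest on it are given with and without it.

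Of the 13 mitochondrial genes, 6 were nearly empty in the table. For these, mt-Co2, mt-Atp8, mt-Atp6, mt-Co3, mt-Nd3 and mt-Nd4l, at least 98.9% of all 75-base stretches occur without a difference in the nuclear genome, in an insert of mitochondrial DNA on chromosome 1 (GRCm38, chr1:24611535-24616188, minus strand) that aligns to mitochondrial positions 6390 to 11042 with 2 mismatches and 1 gap over 4654 aligned bases. Of the other 7 genes, mt-Nd1 had no copy found, and the rest had copies of lower identity or of only part of the gene. A stretch each of mt-Co2 (chrM:7310-7399) and mt-Nd6 (chrM:13767-13856, minus strand) is shown as an example of an exact and of an inexact copy. Their nuclear copies lie at chr1:24615179-24615268 and chr4:80003611-80003700, both on the minus strand. Capitals mark the bases that differ, of which there are 0 in the 90 bases of mt-Co2 and 10 in the 90 bases of mt-Nd6. Sequences are from the GRCm38 reference, 5′ to 3′ along the gene.
mt-Co2 mitochondrial gene: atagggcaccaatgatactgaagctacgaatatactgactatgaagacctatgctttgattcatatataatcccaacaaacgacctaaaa
mt-Co2 nuclear copy: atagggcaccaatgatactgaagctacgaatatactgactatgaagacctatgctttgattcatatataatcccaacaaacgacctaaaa
mt-Nd6 mitochondrial gene: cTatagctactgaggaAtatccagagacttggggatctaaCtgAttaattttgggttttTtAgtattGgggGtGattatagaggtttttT
mt-Nd6 nuclear copy: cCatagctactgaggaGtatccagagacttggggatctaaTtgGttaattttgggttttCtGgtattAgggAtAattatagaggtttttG

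The levels fell into separate ranges along this division. Mean levels of the 6 genes with complete copies lay between 0.0989 and 2.48 CPM per kilobase of exon (RPKM), and those of the other 7 between 178 and 2809 RPKM. In no tumor did the 6 genes together collect more than 195 counts. The 7 genes held 99.98% of all counts on mitochondrial members. mt-Co1, the catalytic core subunit of complex IV, and mt-Nd4, a proton-pumping subunit of complex I, had an exact copy for 39.8% and 61.5% of their stretches, and were read at 2809 RPKM and 422 RPKM. The genes annotated inside the chromosome 1 insert were also nearly empty. The highest was Gm28437, which lies over the copies of mt-Atp6 and mt-Co3, with at most 75 counts in a tumor. How reads that align to several places were counted is not given in the sources used here, and its part in these low values was not tested.

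**Figure D1:**
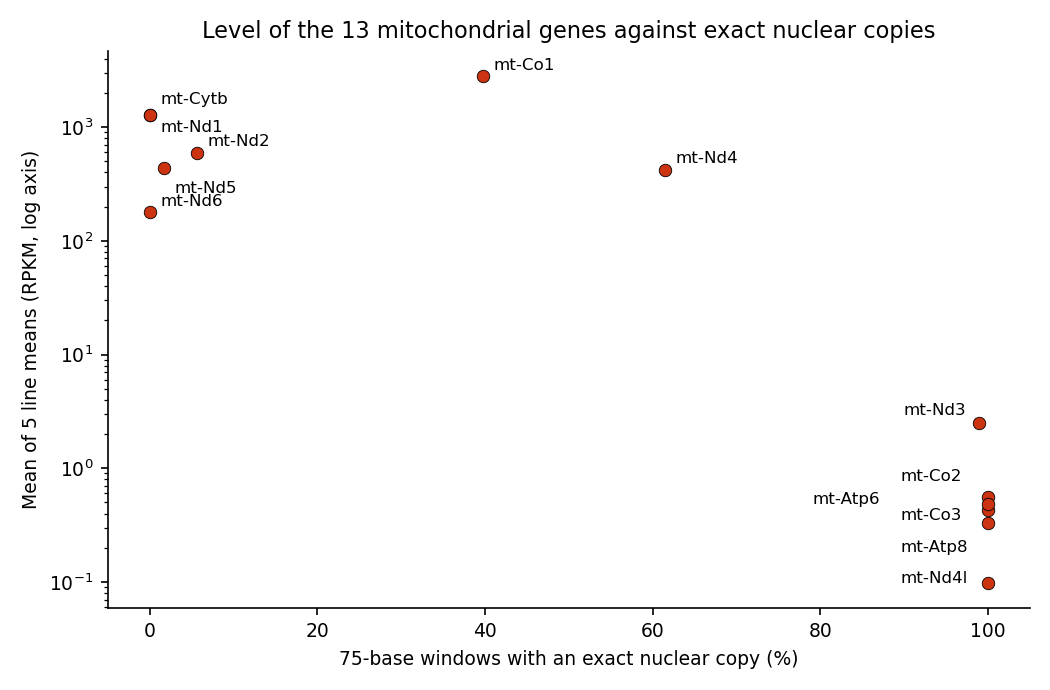
Level of each of the 13 mitochondrial genes (mean of the 5 line means, RPKM, log axis) against the percentage of its 75-base stretches that occur unchanged in the nuclear genome. The 6 genes at 98.9% or more lie at or below 2.48 RPKM and the 7 others at or above 178 RPKM.

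Among the 7 genes without a complete copy, mt-Co1 was the highest per length and mt-Nd6 the lowest. Their median was 596 RPKM, against 39.99 RPKM for the nuclear members, a ratio of 14.9. With the longest protein-coding transcript as gene length in place of the union of exons, the ratio was 9.74. The members thus differ greatly in level, and the comparisons below are of each gene with itself across lines.

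The share of all counts that fell on mitochondrial members differed several-fold between lines. It was 0.557% ± 0.128 in MCA-943 (SD, n = 4), with tumors at 0.657%, 0.415%, 0.482% and 0.672%. In MCA-948 it was 0.968% ± 0.283 (SD, n = 8), from 0.606% through a median of 0.936% to 1.44%. In MCA-969 it was 1.39% ± 0.136 (SD, n = 8), from 1.23% through 1.34% to 1.58%. MCA-969 lay above every tumor of MCA-943 and MCA-970, and its range overlapped those of MCA-948 and MCA-972. MCA-970 had the lowest share, 0.430% ± 0.0429 (SD, n = 6), from 0.369% through 0.424% to 0.489%. MCA-972 had 1.23% ± 0.196 (SD, n = 4), with tumors at 1.51%, 1.17%, 1.18% and 1.05%. The order was therefore MCA-969, MCA-972, MCA-948, MCA-943 and MCA-970, and in this order each line overlapped the next. The 6 genes with complete copies add almost nothing to these shares.

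The nuclear members differed far less. Their share of counts was 0.648% ± 0.0277 in MCA-943 (SD, n = 4), 0.901% ± 0.0948 in MCA-948 (SD, n = 8), 0.636% ± 0.0217 in MCA-970 (SD, n = 6) and 0.631% ± 0.0195 in MCA-972 (SD, n = 4). In MCA-969 it was 0.796% ± 0.147 (SD, n = 8), with W-2D at 1.15%, the highest of all 30 tumors, and a median of 0.759%. MCA-972, second highest for the mitochondrial members, had the lowest mean for the nuclear members, within 1 SD of MCA-970.

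**Figure D2:**
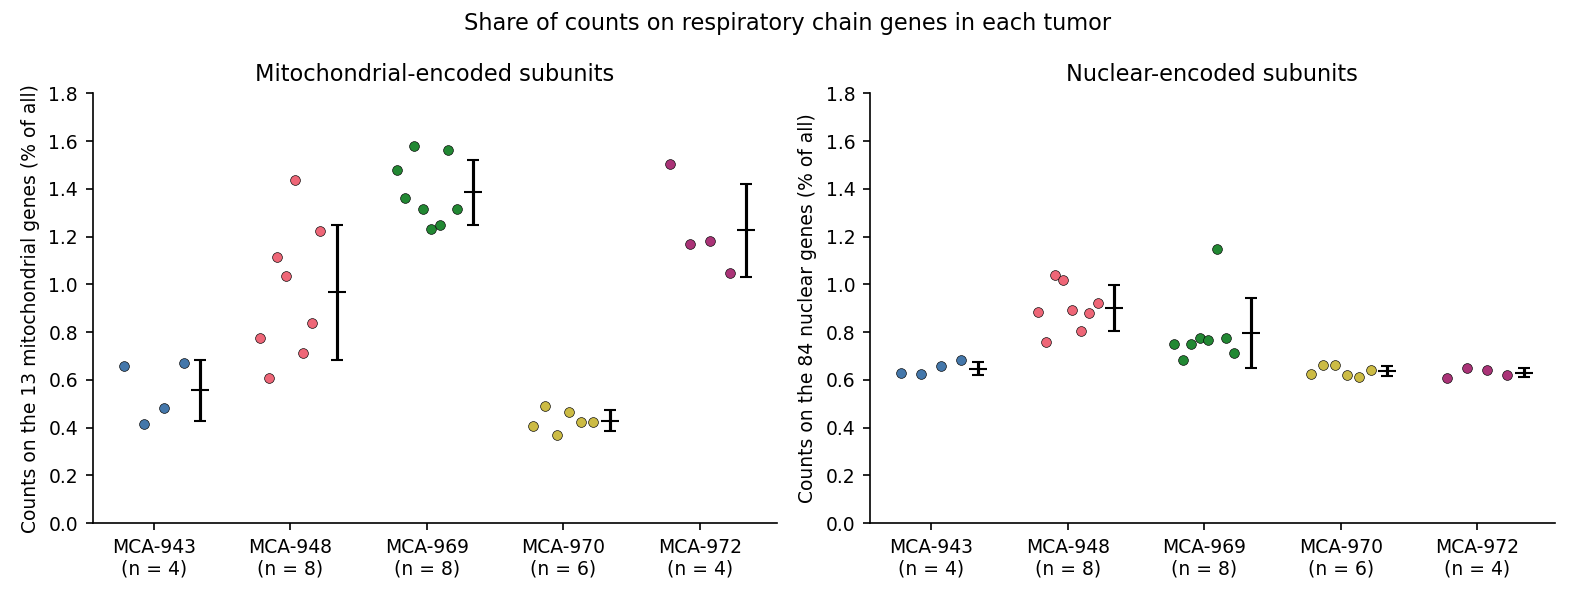
Percentage of all counts on the 13 mitochondrial and on the 84 nuclear members in each tumor, by line, with the mean and SD. MCA-970 lies at 0.369% to 0.489% for the mitochondrial members, below every tumor of MCA-948, MCA-969 and MCA-972, and the 1 MCA-969 tumor at 1.15% for the nuclear members is W-2D.

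The balance between the genomes followed the mitochondrial side. The mean log2 CPM of the 7 mitochondrial genes without a complete copy was 9.001 ± 0.31 in MCA-943 (SD, n = 4), 9.50 ± 0.38 in MCA-948 (SD, n = 8), 10.09 ± 0.34 in MCA-969 (SD, n = 8), 8.28 ± 0.16 in MCA-970 (SD, n = 6) and 10.21 ± 0.205 in MCA-972 (SD, n = 4). The 74 nuclear members at a mean of 10 CPM or more stood at 6.07, 6.26, 6.11, 5.99 and 5.89 in the same order. Line means thus spanned 1.93 on the log2 scale for the mitochondrial genes and 0.37 for the nuclear genes. Taken over all 13 and all 84 members, the difference of the mean log2 CPM, mitochondrial minus nuclear, was -1.11 in MCA-943, -1.04 in MCA-948, -0.68 in MCA-969, -2.01 in MCA-970 and -0.34 in MCA-972. Those values are below 0 because the 6 genes with complete copies and near-empty counts enter the mean.

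**Figure D3:**
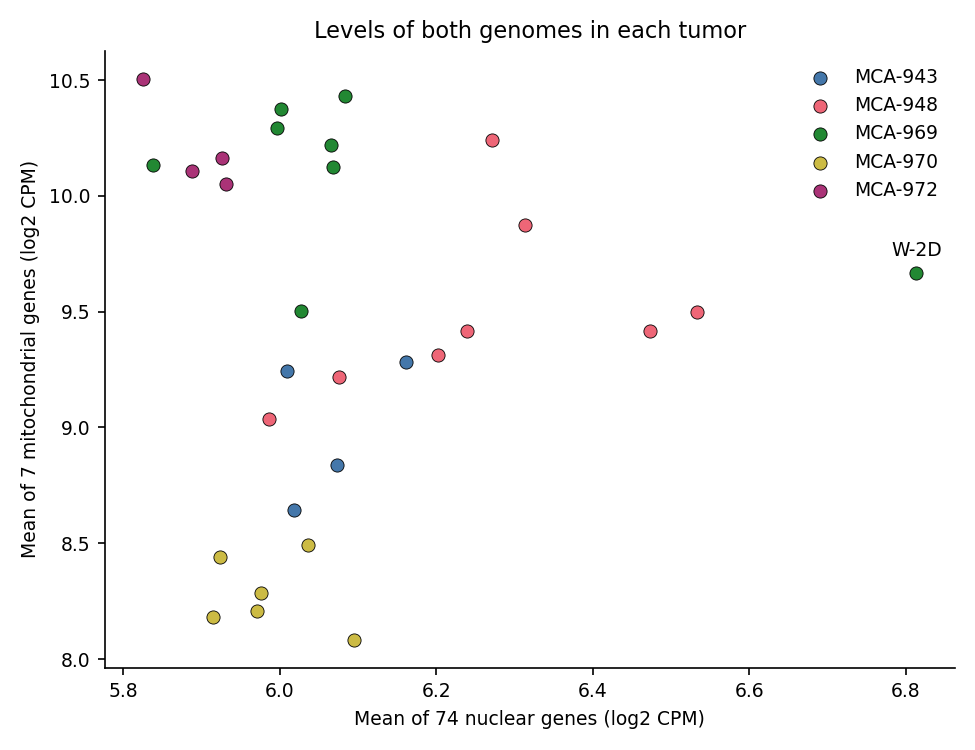
Mean log2 CPM of the 7 mitochondrial genes without a complete copy against that of 74 nuclear members, 1 point per tumor, coloured by line. Tumors of MCA-970 lie lowest, at 8.08 to 8.49, tumors of MCA-972 and most of MCA-969 lie near 10, and MCA-969 W-2D lies to the right at 6.81.

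Within lines, tumors with more mitochondrial transcript did not regularly have more nuclear transcript. Pearson's r between both means was 0.41 and Spearman's rho 0.71 over the 8 tumors of MCA-948, -0.48 and -0.14 over the 8 tumors of MCA-969, and -0.23 and -0.03 over the 6 tumors of MCA-970. Without the 2 tumors farthest from the median on the mitochondrial axis, r became 0.91, 0.40 and -0.64. In MCA-969 these 2 were W-1D and W-2D, its tumors of block 2, at 9.50 and 9.67. In MCA-948 the block 2 tumors a-2G and a-R had the highest nuclear means of the line, 6.53 and 6.47. The mitochondrial mean includes mt-Nd6, which was low in every tumor of block 2. The part of the block in these values was not tested. Both means come from the same libraries, and the values are a description of these tumors. By contrast, the nuclear members followed the summed level of the 78 nuclear genes of the mitochondrial ribosome, with r of 0.93 in MCA-948, 0.98 in MCA-969 and 0.99 in MCA-970. Without the 2 tumors farthest from the median on the nuclear axis r was 0.82, -0.38 and 0.91. In MCA-969 these were W-2D at 6.81 and a-1G at 5.84, so that the relation there rests on them.

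Gene by gene, edgeR's quasi-likelihood test over 16862 genes that passed a filter on low counts included 91 members. Left out for low counts were mt-Nd4l, mt-Atp8, Cox6a2, Cox7b2, Cox8b and Cox8c. A difference among the 5 lines at an adjusted p under 0.05 was called for 94.1% of all genes tested, for 11 of 11 mitochondrial members and for 69 of 80 nuclear members (86.2%). With the added condition that line means span at least 1 on the log2 scale, 58% of all genes were called, against 11 of the 11 mitochondrial members and 13 of the 80 nuclear members (16.2%). The median span of line means was 1.79 for the mitochondrial members, 0.58 for the nuclear members and 1.19 for all genes. The 13 nuclear members were Ndufc1, Ndufc2, Ndufs6, Sdha, Uqcr11, Uqcrc1, Uqcrc2, Cox4i2, Cox6b2, Cox7a1, Ndufa4l2, Atp5b and Atp5f1. The 11 without a difference were Ndufa7, Ndufb10, Ndufb9, Ndufv2, Ndufv3, Sdhc, Uqcrb, Uqcrh, Atp5j2, Atp5k and Atp5l, and the last of these shares 80.4% of its stretches with other places in the genome.

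MCA-970 had the lowest mitochondrial transcripts. All 11 tested mitochondrial members were lower than the mean of the other 4 lines and none was higher, where 29.1% of all genes were lower and 31.9% higher. The median log2 fold change was -1.32 over the 11 and -1.22 over the 7 genes without a complete copy, against 0.01 over all genes. mt-Co1 was 2198 ± 193 CPM (SD, n = 6) in MCA-970, from 1849 through 2260.2 to 2361, and the lowest tumor of the other 4 lines had 2472. No tumor of MCA-970 reached the range of any other line for this gene. The fold change of mt-Co1 was -1.11 ± 0.15 on the log2 scale (SE), with an adjusted p of 3.03e-07 by edgeR's quasi-likelihood test.

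Mitochondrial members of complexes I and III were lower in MCA-970 as well. mt-Nd1, part of the ubiquinone-binding module, was 554 ± 89.8 CPM (SD, n = 6), against 1787 ± 298 (SD, n = 4) in MCA-972, and its fold change was -1.22 ± 0.14 on the log2 scale (SE). mt-Nd2, mt-Nd4 and mt-Nd5, the proton-pumping subunits, changed by -1.43, -1.12 and -1.25 on that scale. mt-Cytb, the core subunit of complex III, was 754 ± 75.6 CPM (SD, n = 6) and changed by -1.06. Block 2 holds 2 tumors each of MCA-948 and MCA-969 beside the 6 of MCA-970. Within it, the median difference over the 10 tested mitochondrial members was 1.11 for MCA-948 over MCA-970 with 7 called higher, where 23.6% of all genes were, and 1.31 for MCA-969 over MCA-970 with 6 called higher, where 22.3% were. Without W-2D, a setting chosen after seeing the data that leaves MCA-969 with 1 tumor assumed to vary like the others, 7 of 11 were called in each comparison, with medians of 1.07 and 1.37, where 27.3% and 15.4% of all genes were. With the block as a covariate over all 30 tumors, 7 members were called lower in MCA-970 in place of 11. How many of all genes were called in that fit was not counted.

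Markers of vessels were also higher in MCA-970. All 5 endothelial markers were higher, where 31.9% of all genes were, with a median log2 fold change of 1.55. They summed to 259 to 484 CPM there, against 53.3 to 118 in MCA-943, 18.3 to 338 in MCA-948, 58.9 to 188 in MCA-969 and 38.6 to 111 in MCA-972. In block 2, which holds all tumors of MCA-970, the sum was 38.2 and 338 CPM in the tumors of MCA-948. It was 70.4 and 188 CPM in those of MCA-969. Of the 6 pericyte markers 5 were higher and 0 lower, with a median of 2.04. Their part in the levels of the members in MCA-970 was not tested.

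Over all tumors, MCA-969 and MCA-972 had the highest mitochondrial transcripts. In MCA-969, 9 of 11 tested mitochondrial members were higher than the mean of the other 4 lines and 0 lower, where 32.2% of all genes were higher and 24.8% lower, and the median log2 fold change was 0.82. In MCA-972, 7 of 11 were higher and 0 lower, where 26.7% of genes were higher and 24.6% lower, with a median of 0.70. In MCA-969 mt-Nd5 stood at 1235 ± 157 CPM (SD, n = 8) and in MCA-972 at 1261 ± 215 CPM (SD, n = 4), against 358 ± 33.2 in MCA-970 (SD, n = 6), 570 ± 118 in MCA-943 (SD, n = 4) and 597 ± 131 in MCA-948 (SD, n = 8). Its tumors in MCA-969, at 939 to 1432, and in MCA-972, at 1102 to 1565, lay above all tumors of the other 3 lines, the highest of which had 838. Within block 2 MCA-948 and MCA-969 were close. The median log2 difference of MCA-948 from MCA-969 over 10 tested mitochondrial members was -0.07 there, against -0.38 over all tumors. The mean log2 CPM of the 7 genes without a complete copy was 9.50 and 9.42 in the block 2 tumors of MCA-948. In those of MCA-969 it was 9.50 and 9.67. With the block as a covariate, 7 members were called higher in MCA-969, the number for MCA-972 went from 7 to 2 and 1 was called lower. The median over the 7 genes without a complete copy in MCA-972 was 0.62 in place of 1.02. Since the share of all genes called in that fit was not counted, these counts cannot be set against it.

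In the other 2 lines the mitochondrial members were divided. MCA-943 had 1 higher and 6 lower, where 32.3% of all genes were higher and 30.2% lower, with a median of -0.42. The 1 that was higher was mt-Nd3, one of the near-empty genes, at 1.55 ± 0.215 CPM (SD, n = 4). In MCA-948, 5 were higher and 1 lower, where 33.6% of genes were higher and 35.3% lower, with a median of 0.31. mt-Nd5 was the 1 that was lower, by 0.33 ± 0.10 (SE) with an adjusted p of 0.0039 by edgeR's quasi-likelihood test, while mt-Nd1 and mt-Nd2 were both higher by 0.37. With the block as a covariate mt-Nd5 was at -0.13 on the log2 scale with an adjusted p of 0.528 by the same test, so that no member was called lower in MCA-948, and 4 were called higher. In MCA-943, 2 members were then called lower in place of 6. For the fit with the block, the share of all genes called was not counted. Within block 3 the median log2 difference of MCA-943 from MCA-948 over 11 mitochondrial members was -0.6, against -0.57 over all tumors.

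mt-Nd6, the complex I gene read from the opposite strand, stood apart from the other mitochondrial members. It was 82.0 ± 16.7 CPM (SD, n = 4) in MCA-943, 77.3 ± 42.7 in MCA-948 (SD, n = 8), 134 ± 75.9 in MCA-969 (SD, n = 8), 13.3 ± 3.46 in MCA-970 (SD, n = 6) and 154 ± 10.45 in MCA-972 (SD, n = 4). The 10 tumors of block 2 had 7.94 to 28.3 CPM and the 20 tumors of blocks 1 and 3 had 57.9 to 214, so that the groups by block did not overlap. Within MCA-948 the tumors a-2G and a-R of block 2 had 28.3 and 26.6 CPM, and the 6 of block 3 had 57.9 to 147. Within MCA-969 the tumors W-1D and W-2D of block 2 had 20.2 and 15.04, and the 6 of block 1 had 125 to 214. As a percentage of the summed CPM of the other 6 mitochondrial genes without a complete copy, mt-Nd6 was 0.117% to 0.400% in block 2 and 0.992% to 1.49% in blocks 1 and 3. The fold change of mt-Nd6 in MCA-970, -3.01 ± 0.45 (SE) on the log2 scale, is therefore a comparison of 6 tumors of block 2 with 4 of block 2 and 20 of the others, and within block 2 it was 1.05 higher in MCA-948 than in MCA-970 with an adjusted p of 0.00572, and 0.41 higher in MCA-969 with an adjusted p of 0.213, both by edgeR's quasi-likelihood test. The reason for the difference between blocks was not tested.

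In MCA-948 more nuclear members were higher than lower. Of 80, 41 were higher than the mean of the other lines and 7 lower, with a median log2 fold change of 0.22 and -0.01 over all genes, where 33.6% and 35.3% of all genes were. In the fit with the block 26 were higher and 7 lower, and the share of all genes called in it was not counted. Sdha, the flavoprotein subunit of complex II, was 257 ± 16.7 CPM (SD, n = 8) in MCA-948, from 239 through 256 to 283. Its level was 184 ± 5.57 in MCA-943 (SD, n = 4), 179 ± 14.9 in MCA-969 (SD, n = 8), 128 ± 4.47 in MCA-970 (SD, n = 6) and 185 ± 9.62 in MCA-972 (SD, n = 4). MCA-948 lay above all other tumors for Sdha and MCA-970 below all others. The other 3 subunits of complex II differed less: the span of line means was 0.56 for Sdhb, the iron-sulfur subunit, 0.54 for Sdhd, a membrane anchor, and 0.21 for Sdhc, the other anchor, against 1.01 for Sdha.

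Further nuclear members of MCA-948 were higher in complexes I and III. Uqcrfs1, the Rieske iron-sulfur protein of complex III, was 121 ± 13.5 CPM (SD, n = 8) there, at 103 to 143, and no line other than MCA-969, whose W-2D reached 129, had a tumor above 103. Of 8 nuclear members of complex III, 7 were higher in MCA-948, where 33.6% of all genes were. Their median log2 fold change was 0.40. With the block as a covariate 4 of 8 were higher, with a median of 0.27, and the share of all genes in that fit was not counted. Ndufs1, the iron-sulfur subunit at the entry of electrons into complex I, rose by 0.66 ± 0.05 (SE) and Ndufs6, an accessory subunit, by 0.72 ± 0.10 (SE) on the log2 scale. Lower in MCA-948 were Cox6b2, Cox7a1 and Ndufb4, by 2.22, 0.86 and 0.71 on that scale, of which Ndufb4 shares 39.7% of its stretches with other places in the genome.

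Among the 4 remaining lines, nuclear members were called in both directions in MCA-943, MCA-969 and MCA-970, and only lower in MCA-972. MCA-943 had 10 of 80 higher and 13 lower, with a median of 0.01, where 32.3% of all genes were higher and 30.2% lower. MCA-969 had 26 higher, which is 32.5% of the 80 and near the 32.2% of all genes, and 6 lower, where 24.8% of all genes were, with a median of 0.08. MCA-970 had 11 higher and 22 lower, with a median of -0.08, where 31.9% and 29.1% of all genes were. MCA-972 had 0 higher and 34 lower (42.5%), with a median of -0.21, where 26.7% of all genes were higher and 24.6% lower. Among the 16 tested nuclear members of complex IV, 11 were higher and 1 lower in MCA-969 at a median of 0.34, and 0 were higher and 11 lower in MCA-972 at a median of -0.38. Without W-2D these became 7 and 1 at 0.15 in MCA-969, and 0 and 10 at -0.34 in MCA-972. In the fit with the block as a covariate 11 of 16 were higher in MCA-969, and 3 of 16 were lower in MCA-972 at a median of -0.18. Neither for this fit nor for that without W-2D was the share of all genes called counted.

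The block touched the counts over all nuclear members too. The share of all genes called with the block as a covariate was not counted, so these counts cannot be set against it. In that fit the nuclear members lower in MCA-972 went from 34 to 4 and the median to 0.01. Those lower in MCA-970 went from 22 to 55 with a median of -0.44. Those lower in MCA-943 went from 13 to 6. Within block 1, 28 nuclear members were higher in MCA-969 than in MCA-972 and 7 lower, with a median of 0.11, where 28% of all genes were higher and 26.9% lower. Within block 2, 39 were higher in MCA-948 than in MCA-970 and 0 lower, with a median of 0.50, where 23.6% of all genes were higher and 24.7% lower. Without W-2D in the fit, these were 62 and 1 with the same median, where 27.3% and 28.1% of all genes were. The comparison of MCA-969 with MCA-970 in block 2 rests on W-1D and W-2D. With both, 43 nuclear members were higher in MCA-969 and 0 lower, with a median of 0.50, where 22.3% and 18.9% of all genes were, and with W-1D alone 14 were higher and 6 lower, with a median of 0.07, where 15.4% and 14.1% were.

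**Figure D4:**
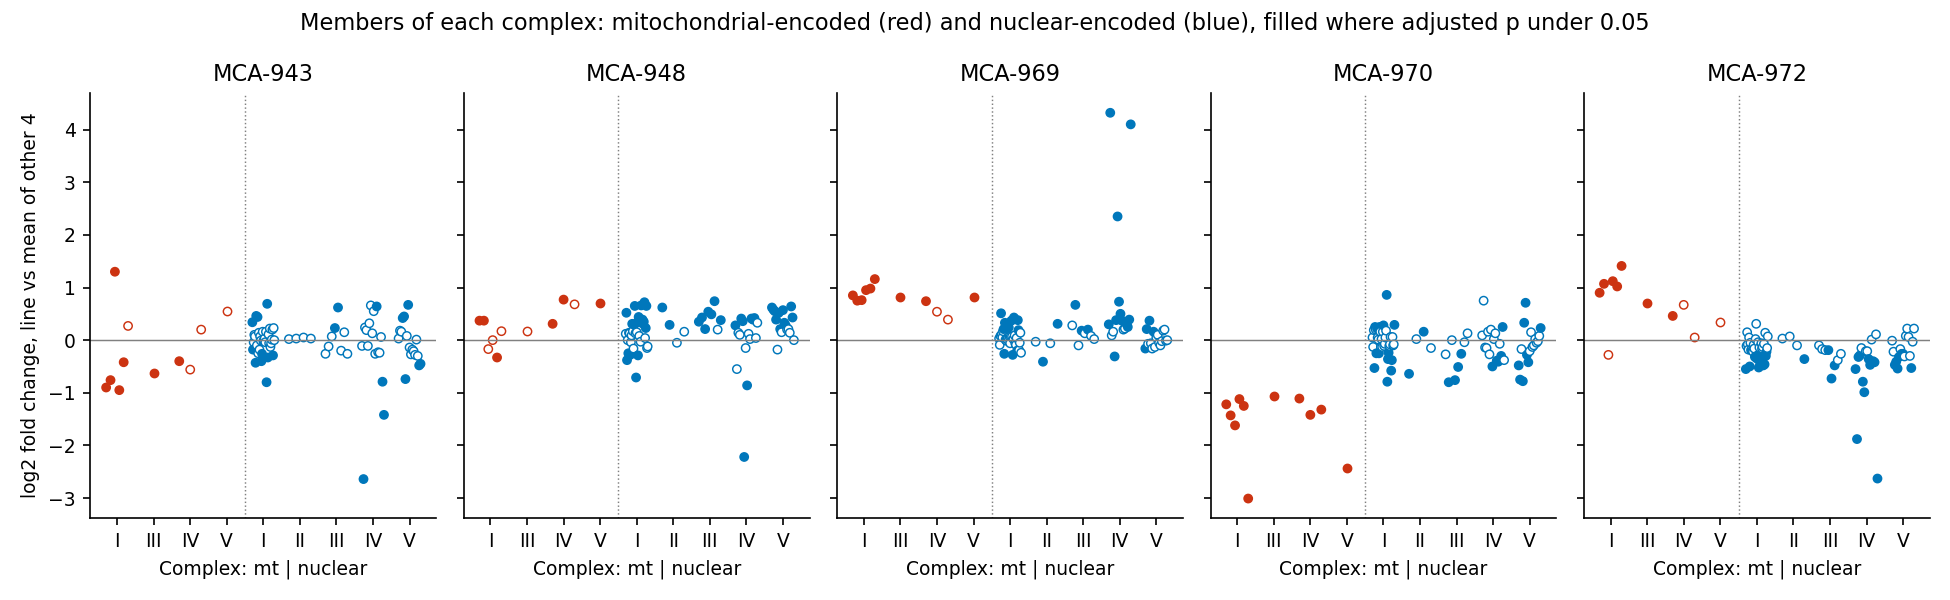
Log2 fold change of each tested member in each line against the mean of the other 4 lines, by genome and complex. Mitochondrial members of MCA-970 lie at a median of -1.32 and those of MCA-969 at 0.82, while nuclear members of every complex have medians between -0.38 and 0.40.

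Single nuclear members departed from their group. Ndufc1, an accessory subunit of complex I, was 54.6 ± 1.65 CPM (SD, n = 6) in MCA-970 and 21.8 ± 2.09 in MCA-943 (SD, n = 4), and no tumor of either line fell in the range of the other. Atp5f1, subunit b of the ATP synthase stalk, was 387 ± 6.45 CPM in MCA-970 (SD, n = 6), 349 ± 25.9 in MCA-948 (SD, n = 8) and 174 ± 4.04 in MCA-943 (SD, n = 4). It was thus higher in MCA-970, where 22 nuclear members were lower and 11 higher. Its fold change in MCA-970 was 0.71 ± 0.10 (SE) with an adjusted p of 4.55e-07 by edgeR's quasi-likelihood test. Uqcr11, a small complex III subunit, and Atp5d, the delta subunit of the ATP synthase head, went the other way in MCA-970, by -0.80 ± 0.12 and -0.78 ± 0.08 (SE). Atp5e, another small subunit of that head, was 60.7 ± 4.07 CPM (SD, n = 6), a change of 0.33 ± 0.14 (SE) that turned to -0.23 with the block as a covariate. MCA-943 was higher for Atp5g2, a proton-channel subunit, by 0.67 ± 0.10 and Cox7a2l, which joins complexes III and IV, by 0.64 ± 0.11 (SE), and Cox7a2l shares 44.1% of its stretches with other places. MCA-969 was lower for Sdhb and Cox6a1, by 0.41 and 0.31. Ndufb9, for which the F test found no difference among the lines (adjusted p = 0.0849), was at -0.28 in MCA-969 with an adjusted p of 0.0358 by edgeR's quasi-likelihood test, and this call was lost in 7 of 40 other settings, with p up to 0.273. Ndufb10 and Ndufv2, both complex I subunits, spanned only 0.26 and 0.30 over the line means.

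Cox4i2, Ndufa4l2 and Cox6b2 had the widest spans of line means among the nuclear members, at 5.57, 5.38 and 3.65 on the log2 scale, all at low levels. Cox4i2, a form of the complex IV subunit Cox4 that is induced by low oxygen, was 4.24 ± 2.73 CPM (SD, n = 8) in MCA-969, from 2.35 through a median of 3.55 to 10.9 in the tumor WR. No tumor of another line exceeded 1.05 CPM. The fold change was 4.32 ± 0.41 (SE) on the log2 scale, with an adjusted p of 5.23e-10 by edgeR's quasi-likelihood test. Cox4i1, the common form, was 340.2 ± 129 CPM (SD, n = 8) in MCA-969 with W-2D at 655, and 213 ± 12.96 in MCA-972 (SD, n = 4).

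Ndufa4l2, a paralog of Ndufa4 that low oxygen also induces, ran in parallel. It was 27.8 ± 10.6 CPM (SD, n = 8) in MCA-969, from 12.7 through 27.0 to 46.2, and no other tumor exceeded 7.69. The fold change was 4.10 ± 0.23 (SE), with an adjusted p of 1.04e-14 by edgeR's quasi-likelihood test. Both Cox4i2 and Ndufa4l2 were called in MCA-969 under all 40 other settings tried, including those without W-2D or WR. Within block 1, MCA-969 was higher than MCA-972 by 5.09 for Cox4i2 and 5.37 for Ndufa4l2, and within block 2 higher than MCA-970 by 2.38 and 3.62. Without W-2D the latter were 2.02, with an adjusted p of 0.113 by edgeR's quasi-likelihood test, and 3.94. Ndufa4 itself was 53.9 ± 1.68 CPM (SD, n = 4) in MCA-943, with tumors at 52.1 to 56.0, below every other tumor, and 85.3 to 104 CPM in the means of the other lines.

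Markers of pericytes and of the low-oxygen response were set beside these isoforms, since both genes are also known from pericytes. The 6 pericyte markers summed to 87.8 to 206 CPM in MCA-969, 173 to 236 in MCA-943, 114 to 249 in MCA-948, 103 to 295 in MCA-970 and 45.6 to 97.9 in MCA-972, so that MCA-969 overlapped every other line in this sum. The overlap with MCA-972 rests on W-2D at 87.8. The next lowest tumor of MCA-969, a-R, had 122.9, so that without W-2D the line lay above all tumors of MCA-972. Singly, 2 of the 6 were higher and 0 lower in MCA-969, where 32.2% and 24.8% of all genes were. Their median log2 fold change was 0.80. The 10 genes of the low-oxygen response summed to 2099 to 4019 CPM in MCA-969, 1534 to 2422 in MCA-943, 2421 to 5749 in MCA-948, 2787 to 3440 in MCA-970 and 1412 to 2654 in MCA-972. Here too MCA-969 overlapped every other line. Singly, 3 of the 10 were higher and 0 lower in MCA-969, with a median log2 fold change of 0.13. Car9, an enzyme of that list, averaged 10.8 ± 4.85 CPM in MCA-969 (SD, n = 8), and its line means elsewhere were 0.653 to 3.27. The part of either in the isoform levels was not tested.

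Cox6b2, a form known from testis, was 3.02 ± 1.27 CPM (SD, n = 8) in MCA-969, at 1.66 to 5.63, against 0.240 ± 0.184 in MCA-948 (SD, n = 8). Its fold change in MCA-969 was 2.35 ± 0.27 (SE). The common Cox6b1 was 116 ± 47.6 CPM in MCA-969 (SD, n = 8), 115 ± 20.3 in MCA-948 (SD, n = 8) and 60.7 ± 3.12 in MCA-972 (SD, n = 4). Cox7a1, a form known from muscle, was at 0.233 to 0.519 CPM in all line means, which span 1.13 on the log2 scale. The muscle forms Cox6a2 and Cox8b reached at most 6 and 1 counts in any tumor, and Cox7b2 and Cox8c had 0 in every tumor, which allows up to 3 counts per library.

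**Figure D5:**
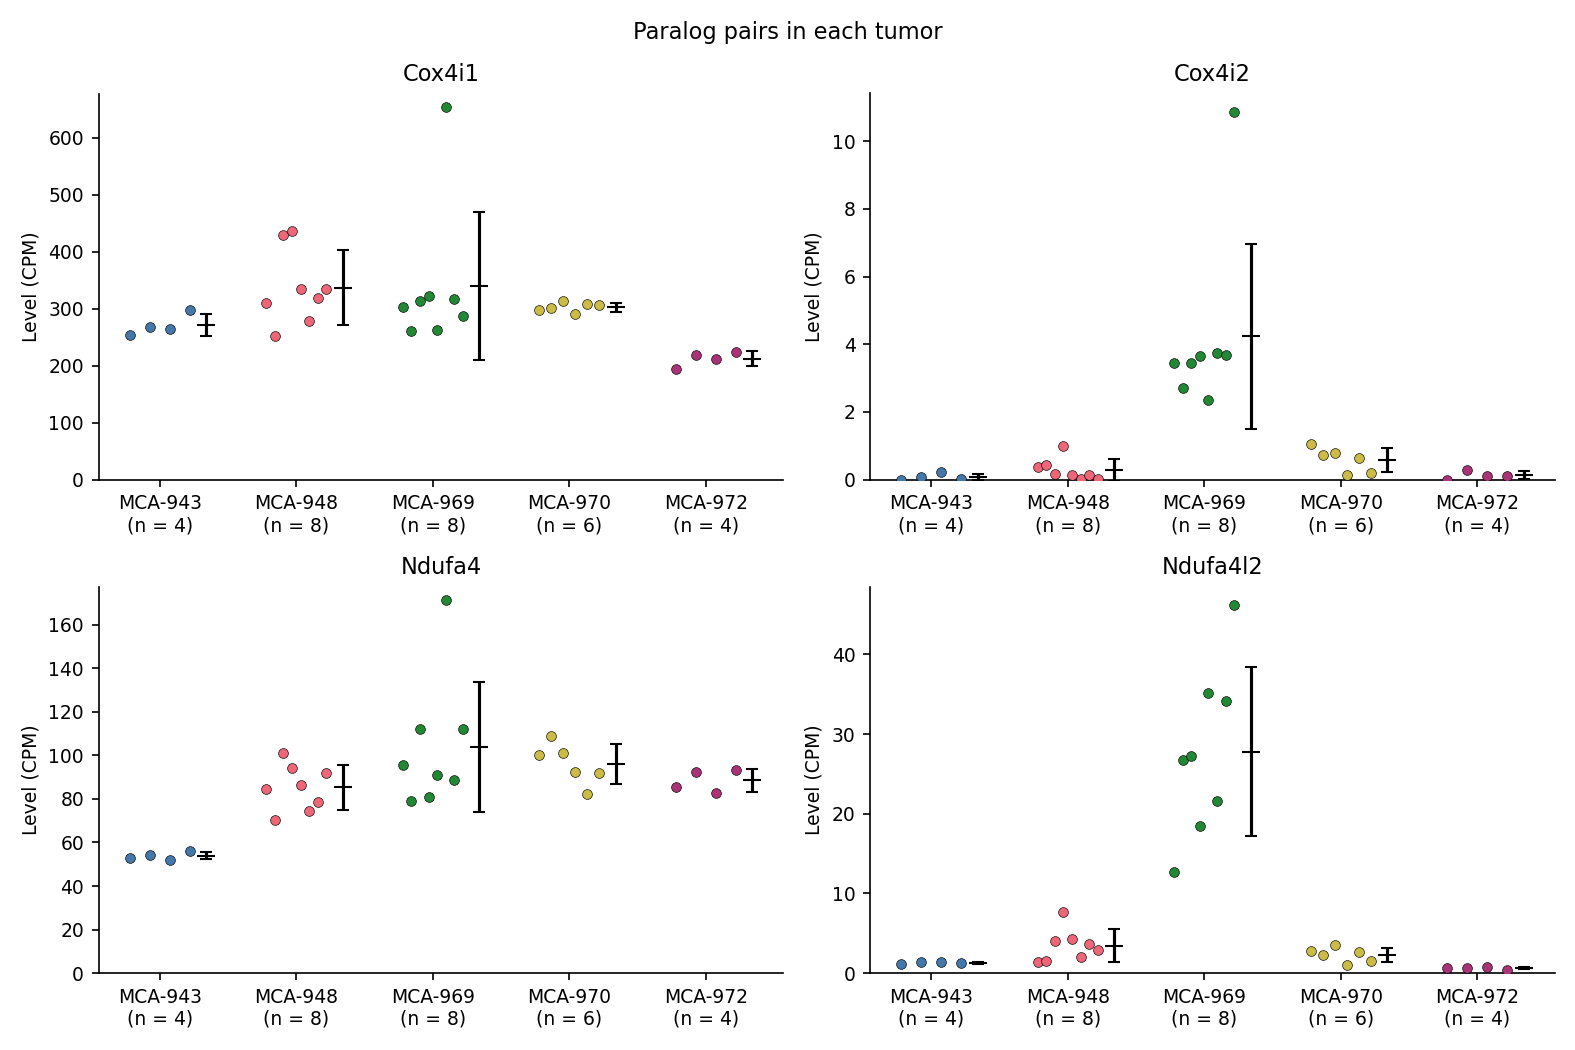
Level in CPM of Cox4i1 and Cox4i2, and of Ndufa4 and Ndufa4l2, in each tumor by line, with the mean and SD and axes that start at 0. Tumors of MCA-969 lie at 2.35 to 10.9 for Cox4i2 and at 12.7 to 46.2 for Ndufa4l2, above every tumor of the other lines.

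Tumor MCA-969 W-2D was highest of its line in 71 of the 74 nuclear members at 10 CPM or more, and highest of all 30 tumors in 54 of them. Its median difference from the mean of the other 7 tumors of MCA-969 was 0.85 on the log2 scale for the nuclear members and -0.01 for the 7 mitochondrial genes, of which it was the highest in 1 and lowest in 2. Over all genes tested it was the highest of MCA-969 in 26.2% and the lowest in 28.3%, so that it stood at an end of its line for many other genes too. Of the 74 nuclear members it was the lowest in 0. The nuclear genes of the mitochondrial ribosome summed to 3987 CPM in W-2D, the highest tumor of MCA-969. Without W-2D, MCA-969 had 15 nuclear members higher and 20 lower with a median of -0.06, in place of 26 and 6 with 0.08. MCA-948 then had 55 higher and 8 lower, MCA-943 20 and 21, MCA-970 18 and 25 and MCA-972 3 and 39, and 77 nuclear members differed among the 5 lines. Calls thus rose in both directions in each of these other lines, in MCA-943 from 10 higher and 13 lower. The share of all genes called in this fit was not counted, so the rise cannot be assigned to the members. The numbers of mitochondrial members called were the same without it in each of the 5 lines.

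A comparison of the lines called not sensitive with those called sensitive found few members in one direction. Of 16862 genes, 2.4% were higher in the line that was not sensitive in all 6 comparisons of MCA-943 and MCA-969 with MCA-948, MCA-970 and MCA-972, and 1.74% were lower in all 6. Among 11 mitochondrial and 80 nuclear members, 1 of each was higher and 0 was lower. The nuclear gene was Ndufc2, an accessory subunit of complex I, at 54.5 ± 2.26 CPM in MCA-943 (SD, n = 4) and 47.3 ± 10.2 in MCA-969 (SD, n = 8). It was 36.7 ± 3.77 in MCA-948 (SD, n = 8), 23.99 ± 1.39 in MCA-970 (SD, n = 6) and 31.6 ± 1.99 in MCA-972 (SD, n = 4). MCA-943 lay above all tumors of the sensitive lines, whereas MCA-969, at 33.7 to 69.1 CPM, overlapped MCA-948 and MCA-972. The 6 log2 fold changes of Ndufc2 ran from 0.36 to 1.18 and the highest adjusted p was 0.000983 by edgeR's quasi-likelihood test. With the block as a covariate the highest was 0.0521. The mitochondrial gene was mt-Nd3, at no more than 1.55 CPM in any line mean. The 6 comparisons share lines and are not independent, and MCA-943 and MCA-969 went opposite ways for the mitochondrial members as a group, with medians of -0.42 and 0.82.

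Genes that serve the mitochondrial genome and its translation were compared in the same way. Of the 31 tested genes that replicate, transcribe or process the mitochondrial genome, 24 were higher and 0 lower in MCA-948, with a median of 0.49, where 33.6% of all genes were higher and 35.3% lower. In MCA-970, 2 were higher and 19 lower, with -0.27, where 31.9% and 29.1% of all genes were. Of the lines with the highest mitochondrial transcripts, MCA-969 had 17 higher and 2 lower, with 0.24, where 32.2% and 24.8% of all genes were, and MCA-972 had 2 higher and 11 lower, with -0.07, where 26.7% and 24.6% were. Tfam, which packages and activates the mitochondrial genome, was 26.5 ± 1.63 CPM (SD, n = 6) in MCA-970 and 46.9 ± 2.30 in MCA-948 (SD, n = 8). Among 77 tested genes of the mitochondrial ribosome, 48 were higher and 5 lower in MCA-948, 32 higher and 5 lower in MCA-969, and 3 higher and 37 lower in MCA-972, with medians of 0.30, 0.16 and -0.24. Ppargc1a, a coactivator of respiratory genes, was 1.17 ± 0.331 CPM (SD, n = 4) in MCA-972 and 0.00847 ± 0.0169 in MCA-943 (SD, n = 4). Its relative Ppargc1b was 3.07 ± 0.733 CPM in MCA-969 (SD, n = 8) and 0.422 ± 0.0805 in MCA-970 (SD, n = 6).

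A motif of a regulator of respiratory genes was counted in the promoters of the nuclear members. Of the 84 nuclear members, 66 had a RefSeq promoter entry of 300 bases (GRCm38, 250 before to 50 after the start), and the motif of NRF1, searched on both strands as GCGCA and GCGC with any 1 base between them, was found in 17 of these 66 (25.8%) and in 1402 of 27025 genes (5.19%). The 17 were Atp5c1, Atp5g2, Atp5g3, Atp5h, Atp5k, Atp5o, Cox6a1, Ndufa11, Ndufa5, Ndufa6, Ndufa8, Ndufb4, Ndufs5, Ndufs6, Sdha, Sdhd and Uqcrc1. A match is a description of letters and not a bound site. Shown are 70 bases from 4 members that were named for a difference in some line, to give the motif its context, with the motif in capitals, 5′ to 3′ along the gene: Atp5g2 (chr15:102671050-102671119, minus strand), Cox6a1 (chr5:115349081-115349150, minus strand), Ndufb4 (chr16:37654520-37654589, minus strand) and Ndufs6 (chr13:73328459-73328528, minus strand). In these promoters the match shown begins 42, 162, 191 and 16 bases before the start of the transcript, and that of Ndufs6 is the motif read from the opposite strand. Cox6a1 holds 2 matches and Ndufb4 holds 3.
Atp5g2 promoter: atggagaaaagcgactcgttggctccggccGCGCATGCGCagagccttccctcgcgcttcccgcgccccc
Cox6a1 promoter: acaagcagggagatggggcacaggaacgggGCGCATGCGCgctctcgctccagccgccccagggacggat
Ndufb4 promoter: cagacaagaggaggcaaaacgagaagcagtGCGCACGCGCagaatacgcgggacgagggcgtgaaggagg
Ndufs6 promoter: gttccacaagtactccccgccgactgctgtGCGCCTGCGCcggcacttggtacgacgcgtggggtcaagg
The 4 genes did not share a line pattern: Atp5g2 was higher in MCA-943, Cox6a1 lower in MCA-969, Ndufb4 lower in MCA-948 and Ndufs6 higher in MCA-948.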

How the data were processed

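RNA was taken from 30 tumors of 5 lines after removal of CD45+ cells, and per the submitters' processing notes the authors aligned reads with STAR 2.5.3a to GRCm38 and made the deposited counts per gene with featureCounts 1.5.2, and the notes also name Picard. The deposited column names speak of molecular identifiers and removed duplicates. How reads with several alignments were treated and whether strand was used are not given in the sources used here, so overlapping genes and genes with near-identical copies are uncertain. The counts are raw, and 382 gene identifiers had no name in the GENCODE annotation used, none of which RefSeq names as a member.

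The members and gene lists were chosen with earlier results of these data known. Lines were taken from the titles. Counts were tested with edgeR 4.0.16 (R 4.3.3) by the quasi-likelihood test with TMM normalization and filterByExpr, over 16862 genes, with the 5 lines as groups and Benjamini-Hochberg adjustment over all genes. The TMM factors were 0.881 to 1.109 and the biological coefficient of variation was 0.221. A gene was called at an adjusted p under 0.05. Each line was compared with the mean of the other 4, an F test was made over the 5 lines, and MCA-943 and MCA-969 were each compared with the 3 sensitive lines. Fold changes are on the log2 scale, and log2 CPM used a prior count of 2. RPKM divides CPM by the union of exons. Stretches of 75 bases and BLAST+ 2.17.0 were used to find nuclear copies. The labels do not tie tumors to separate mice or cultures, so p-values measure only the spread between tumors. The depth of 27745104 to 46537062 counts bounds low genes, and a count of 0 allows up to 3 counts.

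Named were the mitochondrial members, complex II, the isoforms with their common partners, up to 3 nuclear members per line and direction with the largest change among those called, members called in all 6 comparisons, the 3 with the smallest and the 3 with the largest span, and the genes of other lists with the largest span. Tfam and Ppargc1b were named after their values were seen. Alternatives were DESeq2 1.42.0, limma-voom (limma 3.58.1), other normalizations, filters and thresholds, the library block, title letter and title code as covariates, and each tumor left out. Block 2 without MCA-969 W-2D was added after seeing the data. On simulated data for MCA-970 against the other 4 lines with 16241 genes, 40 of 100 changes of 0.5 and 100 of 100 changes of 1 on the log2 scale were recovered, with 11 other genes called. Tumors with the same title code in different lines did not deviate together: over 29 pairs the correlations ran from -0.43 to 0.411, with a median of 0.025, and 8 were over 0.1, so codes were not treated as pairs.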

Additional observations from a re-analysis of the deposited data

Results flagged for a closer look

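Of 200 groups of tumors tested for a single outlying value by Dixon's ratio, 35 had one, where chance gives about 1 in 20 groups. Most were MCA-969 W-2D, the highest of 8 tumors in each case: the mean of the nuclear members was 6.813 on the log2 CPM scale, and in CPM Atp5e was 102.3, Atp5f1 436, Cox4i1 655, Cox6a1 142, Cox6b1 230.0, Cox7a2 183, Cox7a2l 135, Cox7b 278 and Cox8a 157. In the same tumor Ndufa4 was 171, Ndufb10 77.6, Ndufb4 14.4, Ndufb9 125, Ndufc1 65.3, Ndufc2 69.1, Ndufs1 120.6 and Ndufs6 62.0 CPM. It also had Ndufv2 at 151, Sdhb at 94.9, Sdhd at 158, Uqcr11 at 85.1 and Uqcrfs1 at 129 CPM. No mitochondrial gene stood out in it.

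Single values stood out in other tumors. MCA-948 W-1D was highest for mt-Nd2 (1107 CPM), and MCA-972 2G was highest for mt-Nd4 (1183 CPM) and mt-Nd6 (169.8 CPM) and lowest for Sdhb (73.4 CPM). MCA-970 a-2D was highest for mt-Cytb (903 CPM), and MCA-970 a-2G for Cox8a (86.3 CPM) and Uqcrfs1 (77.9 CPM). MCA-948 a-R was highest for Cox4i2 (0.982 CPM) and Ndufa4l2 (7.69 CPM), MCA-969 WR for Cox4i2 (10.9 CPM) and MCA-969 a-R for Sdha (211 CPM). MCA-972 a-1G was lowest for Ndufv2 (67.6 CPM).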

How the results depend on the processing

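Of the summary results, 944 values stayed near their main value under other settings and 39 moved. Near meant within 1 SD of the tumors of the line, or within a set fold for counts and the RPKM ratio. Leaving out 1 tumor cannot shift the mean share or mean difference of a line by 1 SD, so those settings could not count as moved. Among the other results, which are counts per line and single genes, 3172 stayed the same and 68 moved. A further 75 were weaker, 1 was stronger and 3 reversed. Leaving out the 6 mitochondrial genes with complete copies turned the difference between the genomes (mean log2 CPM) to 3.818 in MCA-943, 4.153 in MCA-948, 4.748 in MCA-969, 3.141 in MCA-970 and 5.197 in MCA-972, and taking the median over members to 0.484, 0.003, 0.732, -2.222 and 1.618 in the same order. With nuclear members at 10 CPM or more it was -1.993, -1.954, -1.451, -2.856 and -1.223. Within block 2 it was -1.608 in MCA-948 and -1.477 in MCA-969, where the mitochondrial share was 1.242%, and a prior count of 0.5 gave -2.3 in MCA-970. With the longest transcript as length the RPKM ratio was 9.74. A filter at a mean of 1 CPM tested only 7 mitochondrial members, of which 7 differed. The median of mitochondrial members in MCA-972, main value 0.698, was 0.81 with limma-voom, 1.033 at 1 CPM, 0.85 with the title letter and 0.864 with the title code as a replicate block. Called in all 6 comparisons, mt-Nd3 was lost (count 0) at an adjusted p under 0.01, a fold of at least 1 on the log2 scale, limma-voom, 1 CPM, and with the library block or the title code. Leaving out single tumors gave 0 to 1 there. The highest adjusted p of mt-Nd3 over the 6 comparisons, by edgeR's quasi-likelihood test, was 0.0513 without MCA-969 a-R, 0.112 without MCA-972 a-1G and 0.0532 without MCA-972 a-R. With a log2 threshold of 1, the nuclear members differing were 13 and those called in all 6 were 0. With the library block as a covariate, Cox6b2 was called in all 6 in place of Ndufc2, the nuclear medians were -0.435 in MCA-970 and 0.01 in MCA-972, the median of 7 mitochondrial genes in MCA-972 was 0.619, and the sign turned for Atp5e in MCA-970 (-0.23) and for mt-Nd6 in MCA-969 (-0.13) and MCA-972 (-0.33). The title code as a replicate block reduced the nuclear members lower in MCA-972 from 34 to 7 and those higher in MCA-970 from 11 to 2, and the title letter reduced the first to 13. How many of all genes were called in these fits was not counted, and the cause was not tested. Lines and blocks are only partly separable. Changes of 0.5 on the log2 scale were often missed in the simulation, which gave every gene the same coefficient of variation, 0.221. Single members were called at smaller changes, such as Cox6a1 at -0.31 in MCA-969.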

Other observations

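In MCA-948 the share of counts on the 2 mitochondrial ribosomal RNAs was 0.158% ± 0.0514 (SD, n = 8), against 0.0877% ± 0.0175 in MCA-969 (SD, n = 8), although MCA-969 had the higher share of counts on mitochondrial protein genes.

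Myc, a transcription factor that activates many genes of growth and mitochondrial function, reached 1310.5 ± 797 CPM in MCA-969 (SD, n = 8), 816 ± 393 CPM in MCA-948 (SD, n = 8), and 133 to 167 CPM in the means of the other lines. Twnk, the helicase of the mitochondrial genome, was 37.9 ± 2.46 CPM in MCA-948 (SD, n = 8) and 13.5 ± 0.900 in MCA-943 (SD, n = 4), and the ranges of these 2 lines did not overlap.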
